A study of Mus musculus with 5 samples.

Results

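Kl (klotho), Fgfr1, Vdr and Casr were followed in single cells of mouse kidney, by tubule segment and by stage of a reversible ureteric obstruction. They were chosen by symbol, as the klotho co-receptor, its receptor partner, the vitamin D receptor and the calcium-sensing receptor, and are 4 of the 28692 gene identifiers in the droplet matrices. Every mouse was of the C57/BL6 strain and 8 weeks old. The 4 droplet libraries came from kidneys after sham surgery (day 0), 2 days and 7 days after unilateral ureteric obstruction (UUO, a block of the ureter on 1 side), and 7 days after the block had been reversed (experimental day 14). With 3 mice pooled in each library and 1 library for each condition, no test between conditions was possible, differences between mice could not be seen, and every interval below covers counting error only. Sex, and which kidney of a mouse was taken, are not given in the sources used here. Reads were counted as unique molecular identifiers (UMIs), 1 per captured transcript, and levels are UMIs per 1000000 non-mitochondrial UMIs (CPM) summed over the cells of a gate, the set of cells that marker genes assign to 1 segment or cell type.

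Klotho is a membrane protein of the renal tubule that turns FGFR1 into a high-affinity receptor for the bone hormone FGF23, which lowers phosphate reabsorption and the synthesis of active vitamin D. Its extracellular part can be cut off by the proteases ADAM10 and ADAM17 and then circulates. The vitamin D receptor is a nuclear receptor that pairs with RXR and switches on calcium-transport genes in the distal convolution, and the calcium-sensing receptor is a G protein-coupled receptor best known in the kidney from the thick ascending limb, where it restrains calcium reabsorption.

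The genes lie on 4 chromosomes of GRCm38, the build named in the submitters' processing notes. Kl (ENSMUSG00000058488) spans chr5:150952607-150993817 on the plus strand, Fgfr1 (ENSMUSG00000031565) chr8:25513654-25575718 on the plus strand, Vdr (ENSMUSG00000022479) chr15:97854425-97910630 on the minus strand, and Casr (ENSMUSG00000051980) chr16:36493696-36562141 on the minus strand. All are annotated as protein-coding. Promoters are shown because Kl and Vdr had similar profiles over gates and libraries while Casr had a different one. A link between promoter sequence and these profiles was not tested. The promoter set used here held no entry for Fgfr1. RefSeq (GRCm38.p6) entries, from 250 bases before to 50 bases after the annotated start, matched Kl, Vdr and Casr. They are written 5′ to 3′ on the strand of the gene, and capitals mark the GC box GGGCGG read on either strand.
Kl, chr5:150952357-150952656, plus strand: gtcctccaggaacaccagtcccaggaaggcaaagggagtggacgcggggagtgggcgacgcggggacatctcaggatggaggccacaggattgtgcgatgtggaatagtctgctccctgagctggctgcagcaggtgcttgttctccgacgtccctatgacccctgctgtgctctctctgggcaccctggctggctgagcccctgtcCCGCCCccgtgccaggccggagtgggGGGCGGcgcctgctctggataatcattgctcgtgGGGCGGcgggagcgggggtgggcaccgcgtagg
Vdr, chr15:97908247-97908546, minus strand: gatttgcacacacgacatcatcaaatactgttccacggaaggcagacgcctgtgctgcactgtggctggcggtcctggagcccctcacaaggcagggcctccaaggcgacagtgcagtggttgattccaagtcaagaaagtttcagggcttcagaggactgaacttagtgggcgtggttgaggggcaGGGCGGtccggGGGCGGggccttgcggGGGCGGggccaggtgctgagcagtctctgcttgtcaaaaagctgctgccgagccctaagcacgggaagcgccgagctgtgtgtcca
Casr, chr16:36562085-36562384, minus strand: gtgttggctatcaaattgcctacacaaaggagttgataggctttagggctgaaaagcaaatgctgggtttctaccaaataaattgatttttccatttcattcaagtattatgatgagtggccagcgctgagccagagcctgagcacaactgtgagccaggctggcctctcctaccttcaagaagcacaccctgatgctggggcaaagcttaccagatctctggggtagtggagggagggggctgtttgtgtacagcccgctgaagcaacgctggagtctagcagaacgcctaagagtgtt
The Kl and Vdr windows each held 3 GC boxes and the Casr window held 0, where 35.7% of 32851 mouse promoters of the same length held at least 1. The Kl window had a GC content of 67.3% and 19 CpG pairs, the Vdr window 61.3% and 15, and the Casr window 49.7% and 4, against medians of 52.7% and 7 over all promoters. More CpG pairs than Kl were counted in 26.5% of promoters, more than Vdr in 33.0% and more than Casr in 62.0%. On either strand the letters TATAAA (in 13.6% of all promoters), CCAAT (in 37.4%) and AGGTCA, a half-site of nuclear receptors (in 16.3%), were not found in these 3 windows. The RefSeq start of Vdr lies inside the longer span annotated for the gene, so its window covers that start alone.

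The deposited matrices held 5938 sham, 2739 day 2, 4504 day 7 and 3695 reversed cells, of which 3748, 2157, 4294 and 3152 were kept. The sham library stood apart in quality: its cells had a median of 2480.5 UMIs and 40.6% mitochondrial UMIs, against 4709 to 5668 UMIs and 3.0% to 16.2% in the other 3 libraries. Of 16876 barcodes, 146 occurred in 2 libraries, and leaving them out moved none of the 24 ratios to sham that were rechecked outside its interval. Markers placed 6783 kept cells in tubule gates, 3339 from sham, 1154 from day 2, 704 from day 7 and 1586 from the reversed library. In the order sham, day 2, day 7 and reversed, the proximal gate held 2968, 570, 214 and 1102 cells, the thick ascending limb gate 196, 288, 156 and 220, the distal convoluted tubule gate 35, 33, 53 and 64, and the connecting tubule gate 45, 16, 44 and 49. The last 2 gates were also summed as the distal convolution, with 80, 49, 97 and 113 cells.

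The gates carried their defining markers, many of which were themselves lower after obstruction. In the distal convoluted tubule gate Slc12a3, the thiazide-sensitive cotransporter, was at 6388, 1619, 1562 and 3763 CPM in that order of libraries, and in the connecting tubule gate Calb1, the calcium buffer calbindin, was at 6916, 892, 881 and 4683 CPM. In the thick ascending limb gate Slc12a1, the loop-diuretic target, was at 8550, 2236, 1997 and 4537 CPM, and in the proximal gate Slc34a1, a phosphate cotransporter, was at 4694, 2144, 1747 and 3838 CPM. Not every marker was lower on both days of obstruction. Slc27a2 in the proximal gate was at 1431, 1234, 1658 and 1026 CPM, and Cldn16 in the thick ascending limb gate at 179, 191, 190 and 138 CPM. The distal convoluted tubule cells lay mainly in cluster 27 in sham (32 of 35) and reversed (44 of 64) but in cluster 4 at day 2 (31 of 33) and day 7 (53 of 53), and the thick ascending limb cells mainly in cluster 9 in sham (167 of 196) and reversed (112 of 220) but in cluster 4 at day 2 (148 of 288) and day 7 (113 of 156). Clusters 4 and 9 were named thick ascending limb by their markers and cluster 27 distal convoluted tubule, so most distal convoluted tubule cells of days 2 and 7 lay in a cluster named for another segment. In the distal convoluted tubule gate its marker Pvalb was at 1741, 7.82 (2 UMIs), 2.47 (1 UMI) and 416 CPM. Umod, a thick ascending limb marker, was in that gate at 5812, 1408, 2793 and 3127 CPM, above Slc12a3 at day 7. Cluster 12 was the main cluster of the connecting tubule gate in every library, with 8 of only 16 cells at day 2. Among the 10 leading genes of that small day 2 group, markers of the connecting and the distal convoluted tubule were tied at 1 each. Cluster 12 as a whole was named principal cell by its markers, and connecting tubule cells held a median of 2 of their own 3 markers and 2 of 4 principal cell markers. Aqp2, the water channel of principal cells, was in the connecting tubule gate at 2714, 999, 220 and 751 CPM. The proximal gate also changed its main cluster, from cluster 0 in sham and reversed to cluster 8 at day 2 and cluster 16 at day 7. Mitochondrial shares of UMIs were 34.3%, 24.3%, 18.4% and 29.5% in the proximal gate, 33.7%, 20.3%, 8.88% and 17.3% in the thick ascending limb gate and 33.2%, 25.9%, 12.7% and 21.7% in the connecting tubule gate. The part of these shifts in markers, clusters and mitochondrial share in the results below was not tested.

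Of the 4 genes, klotho had the clearest segment order in the sham and reversed libraries and the largest differences between libraries. In sham kidney its level was highest in the connecting tubule gate and stepped down through the distal convoluted tubule, principal cell, thick ascending limb and proximal gates to intercalated cells, although principal cells and thick ascending limb, and thick ascending limb and proximal tubule, overlapped in their intervals. It was far lower in the distal convolution on both days of obstruction and had returned part of the way in the reversed library. In the proximal tubule its level was lower in obstruction and overlapped sham after reversal. In the reversed library the order was the same except that the proximal tubule stood above the thick ascending limb, and no neighbours overlapped. The place of principal cells there rested on few cells. Of their 30 cells, the 26 with a UMI of the injury gene Lcn2 were at 301 CPM (228 to 389), overlapping the proximal tubule. The sham order did not hold in obstruction. At day 2 the proximal tubule (175 CPM) led the gates with at least 30 cells, overlapping principal cells (169). The distal convoluted tubule (106) lay below the thick ascending limb (121), with overlap. The connecting tubule, at 365 CPM, had only 16 cells. At day 7 the connecting tubule led, but the distal convoluted tubule (138) lay below principal cells (268) and the proximal tubule (155), overlapping the latter.

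**Figure D1:**
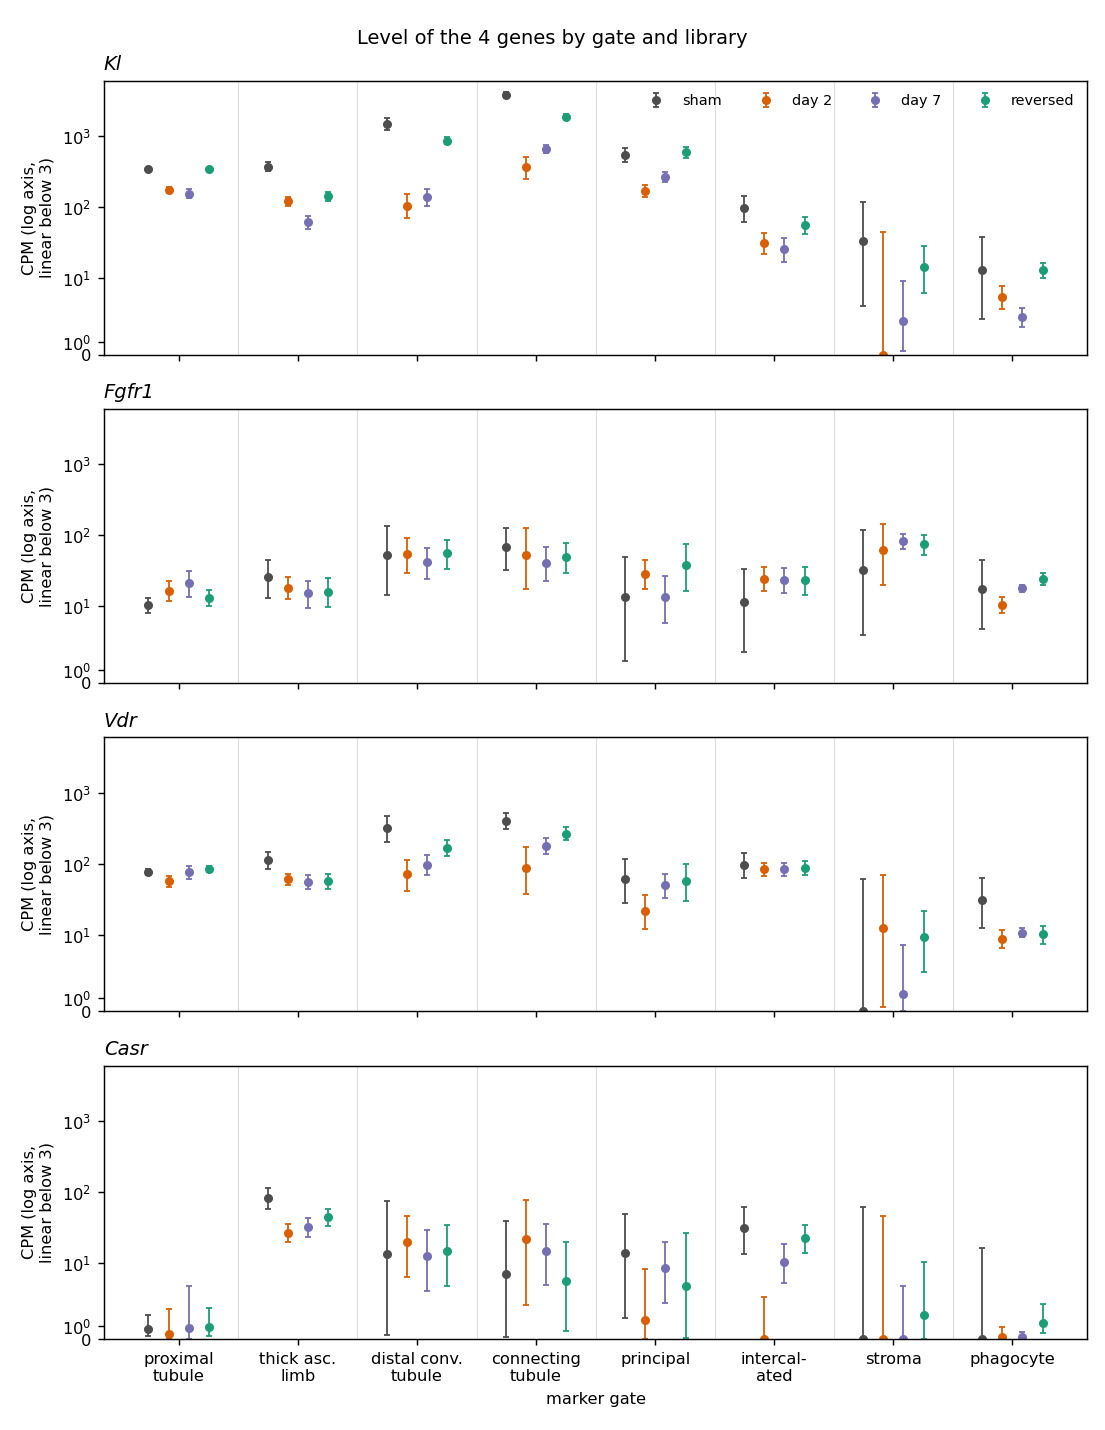
CPM of Kl, Fgfr1, Vdr and Casr (log axis, linear below 3) in 6 tubule gates, stroma and phagocytes, 1 point per library with its exact 95% Poisson interval. Kl in the connecting tubule stands at 3809 CPM in sham, above every other point, and Fgfr1 is at 10.3 CPM in sham proximal tubule and 83.0 CPM in day 7 stroma.

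In the connecting tubule gate Kl was at 3809 CPM in sham (95% Poisson interval 3499 to 4141, 553 UMIs), 365 at day 2 (253 to 511, 34 UMIs), 662 at day 7 (578 to 754, 223 UMIs) and 1889.7 in the reversed library (1752 to 2036, 692 UMIs). In the distal convoluted tubule gate it was at 1492 CPM in sham (1231 to 1793), 106 at day 2 (69.6 to 154), 138 at day 7 (105 to 180) and 862 in the reversed library (767 to 967). In both gates sham was highest, the reversed library next and the 2 obstructed libraries lowest, with no overlap between the intervals of these 3 tiers. Over the distal convolution as a whole the log2 ratio to sham was -4.11 at day 2 (-4.51 to -3.73), -3.00 at day 7 (-3.21 to -2.80) and -1.11 after reversal (-1.25 to -0.97). On the linear scale sham was 17.2-fold, 8.00-fold and 2.16-fold higher than these libraries, the reversed level was 3.71-fold that of day 7, and day 7 was 2.15-fold day 2. These summed values also carry the mix of the 2 gates, since connecting tubule cells were 45 of 80 in sham, 16 of 49 at day 2, 44 of 97 at day 7 and 49 of 113 after reversal. Within the connecting tubule gate sham was 10.4-fold, 5.76-fold and 2.02-fold higher than the 3 later libraries, and within the distal convoluted tubule gate 14.1-fold, 10.8-fold and 1.73-fold. The reversed level was 2.86-fold and 6.23-fold that of day 7 in these gates, and day 7 was 1.81-fold and 1.31-fold day 2, the latter with overlapping intervals.

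These 5 differences of Kl in the summed distal convolution passed the call used here, at least 2-fold with an interval excluding no change. Within each gate the same call held for days 2 and 7 against sham and for the reversed library against day 7. The reversed library against sham was called in the connecting tubule only, and day 7 against day 2 in neither gate. Of the 3 genes with enough UMIs to be measured there (at least 30 over the 2 libraries), Kl and Vdr were called lower at day 2 and at day 7, where 12.0% and 10.4% of all genes were called lower. Kl alone was called lower after reversal, against 5.22% of all genes. From day 7 to the reversed library Kl was the 1 gene of the 3 called higher, against 4.03% of all genes, and from day 2 to day 7 likewise, against 5.37%. The call after reversal was lost with all UMIs as the denominator, 3 markers per cell, every cell weighted equally or whole clusters as gates. The log2 ratio then ranged from -0.87 to -0.35. The last value, from whole clusters, covers cluster 27 alone, because no cluster was named connecting tubule. Of the 5 calls, only those against sham were rechecked under alternatives.

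Thinning each cell to 1000 UMIs, which removes the difference in depth, gave the same order. Kl was then seen in 92.5% of 40 sham connecting tubule cells, 31.3% of 16 at day 2, 36.4% of 44 at day 7 and 67.3% of 49 in the reversed library, with exact 95% intervals of 79.6 to 98.4, 11 to 58.7, 22.4 to 52.2 and 52.5 to 80.1. Without thinning these shares were 93.3%, 75%, 79.5% and 81.6%, at median depths of 4748, 7244.5, 8366 and 7707 UMIs. Leukocytes, which should lack the gene, gave thinned shares of 2.30%, 0.851%, 0.284% and 1.93% at median depths of 2695, 8542, 5887 and 4883 UMIs, and Kl levels of 22.1, 5.65, 3.04 and 15.7 CPM. The connecting tubule stood above this background in every library. The thinned median was 4 Kl UMIs per cell in sham, 0 on days 2 and 7, and 2 after reversal, when the highest cell had 10 against 9 in sham.

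**Figure D2:**
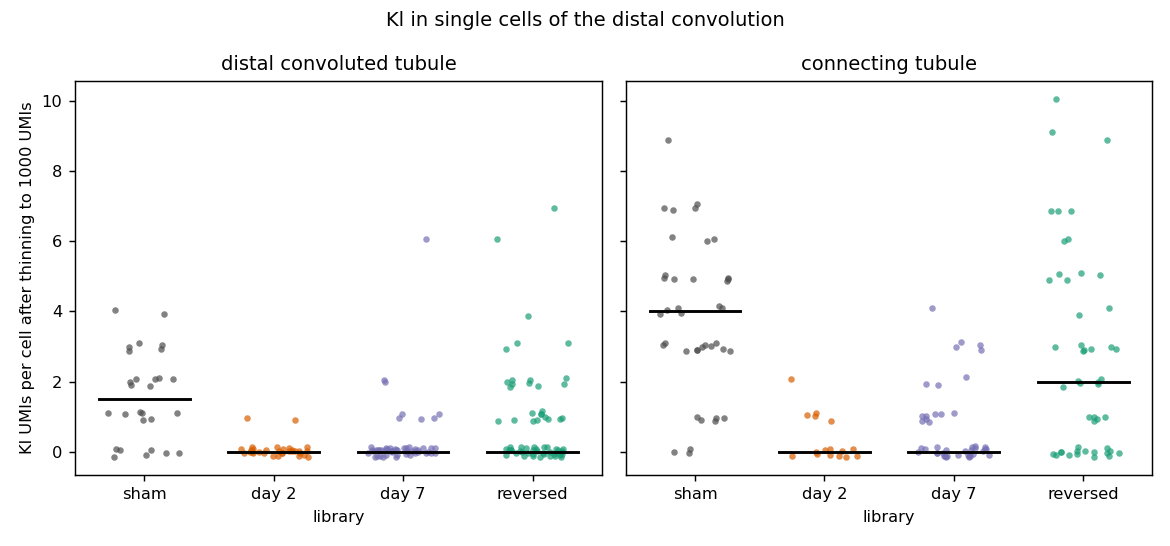
Kl UMIs per cell after thinning to 1000 UMIs, in the distal convoluted tubule (left) and connecting tubule (right) gates, 1 jittered dot per cell and a black line at the median of each library. Reversed connecting tubule cells spread from 0 to 10 UMIs, while most cells of days 2 and 7 sit at 0.

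The thick ascending limb differed from the distal convolution in the order of the 2 obstructed libraries and in the reversed library. Kl was at 375 CPM in sham (321 to 435, 174 UMIs), 121 at day 2 (106 to 138, 230 UMIs), 61.0 at day 7 (49.0 to 75.2, 88 UMIs) and 144 after reversal (123 to 166, 179 UMIs). Day 7 was the lowest of the 4, and the reversed library overlapped day 2. The log2 ratios to sham were -1.63 (-1.92 to -1.34), -2.62 (-3.00 to -2.24) and -1.38 (-1.69 to -1.07), and all were called. With cells of at most 20% mitochondrial UMIs the day 2 value was -0.78, short of the call, and with every cell weighted equally the reversed value was -0.86, also short of it. The day 7 value kept its call but was -1.87 with that mitochondrial limit and -1.70 (-1.98 to -1.41) with whole clusters as gates, where it overlapped the day 2 value of -1.65. Here Kl and Casr were the members called lower at day 2 out of 4 measured, beside 9.19% of all genes, Kl, Vdr and Casr at day 7, beside 12.3%, and Kl after reversal, beside 6.53%. Only Kl was called higher from day 7 to the reversed library (log2 ratio 1.24), beside 4.27% of all genes.

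In the proximal tubule, the segment that reabsorbs most phosphate, Kl was at 348 CPM in sham (334 to 363, 2191 UMIs), 175 at day 2 (158 to 192, 417 UMIs), 155 at day 7 (134 to 180, 183 UMIs) and 343 after reversal (326 to 361, 1500 UMIs). Sham and reversed overlapped and both obstructed libraries lay below them. The log2 ratios to sham were -0.996 (-1.15 to -0.84), just short of the 2-fold call, -1.16 (-1.39 to -0.94), called, and -0.02 (-0.12 to 0.08). Of 3 members measured, 0 were called lower at day 2, 1 at day 7 and 0 after reversal, when 2.70%, 4.04% and 0.411% of all genes were called lower. The day 7 call was lost with all UMIs as the denominator (-0.85) and with at most 20% mitochondrial UMIs (-0.72). TMM and DESeq2 scaling moved it the other way, to -1.55 and -1.54, and took the day 2 value past 2-fold, to -1.14 and -1.17. From day 7 to the reversed library Kl was 2.21-fold higher, the 1 member called, against 2.82% of all genes.

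The early and late parts of the proximal tubule had the same pattern. S1 cells were at 368, 191, 191 and 360 CPM of Kl in sham, day 2, day 7 and reversed libraries, and S3 cells at 289, 123, 128 and 291 CPM. Proximal cells with a UMI of Havcr1 or Krt20, genes induced in injured tubules, were at 115 CPM at day 2 (91.5 to 142, 135 cells) and 128 at day 7 (100.3 to 160, 70 cells). Proximal cells without either were at 201 CPM at day 2 (179.9 to 224) and 182 at day 7 (149.8 to 220), also below the 349 CPM of sham. On both days Kl was thus lower in proximal cells with and without a detected UMI of these injury genes. In the reversed library the 20 cells with such a UMI were at 300.1 CPM (208 to 419), overlapping sham.

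Principal cells, which reabsorb sodium and water in the collecting duct, were at 542, 169, 268 and 591 CPM of Kl, with log2 ratios to sham of -1.68 (-2.10 to -1.25), -1.02 (-1.42 to -0.61) and 0.12 (-0.29 to 0.55). Of the 124 Kl UMIs of the 30 reversed principal cells, 38 came from 1 cell. Intercalated cells, which handle acid and base, were at 96.3, 31.7, 25.5 and 55.5 CPM, with 17 of the 36 UMIs of day 2 from 1 cell. In stroma the level was 33.1, 0, 2.55 and 14.6 CPM, at or near that of leukocytes in the libraries where it was seen. The 0 UMIs of the 12 day 2 stromal cells allow up to 36.9 CPM.

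Fgfr1, the receptor that klotho converts for FGF23, was in sham highest in the distal convolution and lowest in the proximal tubule among the 6 tubule gates with at least 30 cells, and was not called against sham in the distal convolution or the thick ascending limb. In the distal convoluted tubule gate it was at 52.4, 54.7, 42.0 and 55.7 CPM and in the connecting tubule gate at 68.9, 53.7, 41.5 and 49.2 CPM, in the order sham, day 2, day 7 and reversed. Its log2 ratios to sham in the distal convolution were -0.21 (-1.29 to 0.89), -0.60 (-1.55 to 0.43) and -0.27 (-1.19 to 0.73), so that all 3 intervals included no change and reached more than 2-fold lower. In the thick ascending limb it was at 25.8, 18.4, 15.3 and 16.1 CPM, again with intervals that included no change. Neighbours in the order of tubule gates overlapped in every library, but in sham its ends did not: the connecting tubule interval was 33.0 to 127 CPM and the proximal interval 7.97 to 13.2 CPM.

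The proximal tubule was the gate where Fgfr1 was called, and there it was higher. It was at 10.3 CPM in sham (65 UMIs), 16.7 at day 2 (40 UMIs), 21.2 at day 7 (25 UMIs) and 13.3 after reversal (58 UMIs). The log2 ratio to sham was 0.70 at day 2 (0.09 to 1.29) and 1.04 at day 7 (0.31 to 1.73), the latter called, as were 16.3% of all genes in the same direction. With TMM or DESeq2 scaling the day 7 value was 0.66 and the call was lost, and with at most 20% mitochondrial UMIs it was 2.11 (0.32 to 4.52, 17 against 3 UMIs), still called. Phagocytes were at 17.6, 10.6, 18.1 and 24.3 CPM of Fgfr1, above the proximal level in the sham and reversed libraries and below it on days 2 and 7, and lymphocytes at 0, 0, 0.95 and 2.11 CPM. The 0 UMIs of 20 sham and 119 day 2 lymphocytes allow levels of up to 67.0 and 6.68 CPM. The part of phagocyte RNA in the proximal value was not tested. Outside the tubule the few podocytes, the filter cells of the glomerulus, were at 177.8 CPM in sham (88.8 to 318, 11 UMIs from 7 cells), a higher value than in any tubule gate of that library but overlapping the connecting tubule, and at 87.6, 68.1 and 75.7 CPM later. Stroma, whose fibroblasts are a known site of FGF receptors, held Fgfr1 at 33.1 CPM in sham (2 UMIs), 61.4 at day 2 (5 UMIs), 83.0 at day 7 (65 UMIs) and 74.8 after reversal (41 UMIs).

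**Figure D3:**
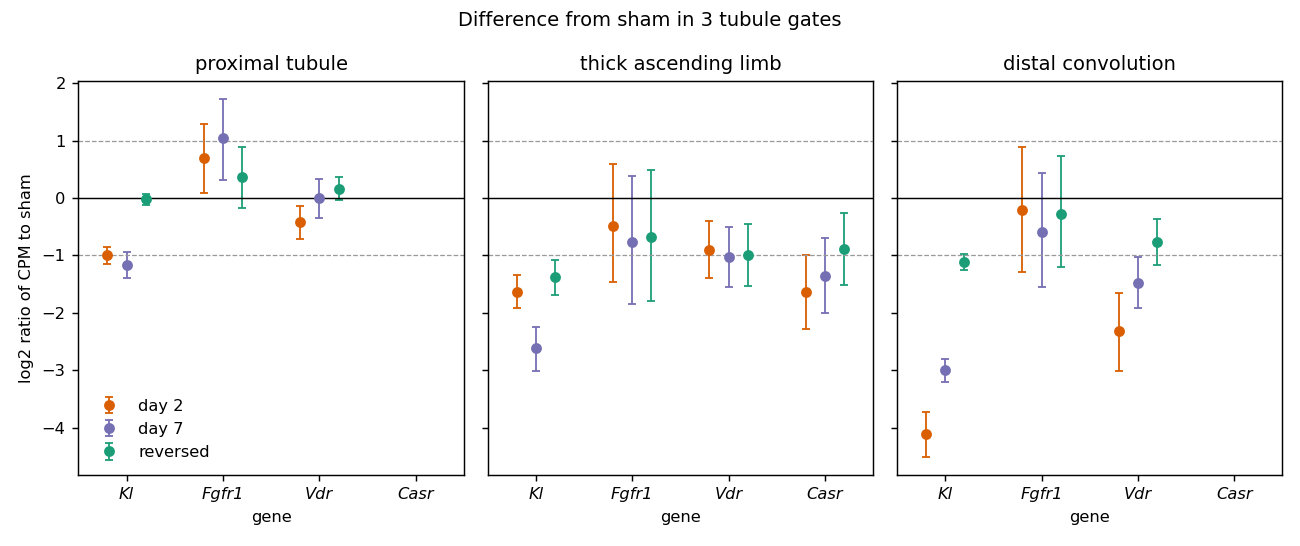
log2 ratio of CPM to sham with exact 95% intervals in the proximal tubule, thick ascending limb and distal convolution, for genes with at least 30 UMIs over the 2 libraries, with dashed lines at 2-fold. Kl reaches -4.11 in the distal convolution at day 2, while Fgfr1 exceeds 0 at its proximal points only.

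Some single cells held UMIs of both klotho and Fgfr1. Of 339 cells of the distal convolution, 60 held UMIs of both, 180 of Kl only, 23 of Fgfr1 only and 76 of neither. In sham all 13 cells with a UMI of Fgfr1 also had Kl, as did 85.1% of the cells without Fgfr1, and the shares with Kl were 50% and 60% at day 2, 64% and 55.6% at day 7, and 77.4% and 75.6% after reversal, so that cells with Fgfr1 did not have the higher share in every library. After thinning to 1000 UMIs the same counts were 10, 139, 10 and 168 of 327 cells, too few of both to compare libraries. Over all tubule gates 261 of 6783 cells held both without thinning and 31 of 6272 with it, counts that depend on depth.

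Of the other FGF receptors, Fgfr2 was at 34.4, 75.2, 65.3 and 51.9 CPM in the connecting tubule gate, Fgfr3 at 15.6, 16.7, 18.7 and 19.9 CPM in the proximal gate, and Fgfr4 at 13.8, 15.5, 9.3 and 15.3 CPM in the proximal gate. Neither proximal receptor passed the call against sham.

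Vdr resembled klotho in the distal convolution, and less so in the proximal tubule. It was at 400 CPM in sham connecting tubule cells (58 UMIs), 86.0 at day 2 (8 UMIs), 178 at day 7 (60 UMIs) and 265 after reversal (97 UMIs), and at 314, 70.4, 96.4 and 167 CPM in the distal convoluted tubule gate. The sham level was highest in both gates and day 2 lowest. Within each gate the intervals of sham and the reversed library overlapped, as did those of days 2 and 7, while sham lay above both days without overlap. The log2 ratio to sham over the distal convolution was -2.31 at day 2 (-3.01 to -1.66), -1.47 at day 7 (-1.91 to -1.03) and -0.77 after reversal (-1.16 to -0.36). The first 2 were called. After thinning, Vdr was seen in 35.3%, 10.2%, 14.4% and 24.8% of distal convolution cells, and in 2.30%, 0.567%, 0.815% and 0.429% of leukocytes.

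In the thick ascending limb Vdr was at 112 CPM in sham (52 UMIs), 59.9 at day 2 (114 UMIs), 54.8 at day 7 (79 UMIs) and 56.2 after reversal (70 UMIs). The 3 later libraries had overlapping intervals below sham, with log2 ratios of -0.90 (-1.39 to -0.40), -1.03 (-1.55 to -0.50) and -0.99 (-1.53 to -0.45), close to the 2-fold boundary on either side of it. The single call, at day 7, was lost under TMM (-0.89) and DESeq2 (-0.92) scaling, with all UMIs (-0.57), with whole clusters (-0.64) and with every cell weighted equally (-0.54). With at most 20% mitochondrial UMIs, which left 9 sham UMIs, all 3 were past 2-fold, at -1.38, -1.28 and -1.68 (-2.76 to -0.44).

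In the proximal tubule Vdr was at 75.6 CPM in sham (69.0 to 82.7, 476 UMIs). At day 2 it was at 56.5 CPM (47.4 to 66.9, 135 UMIs), below sham without overlap. It was at 75.6 CPM at day 7 (89 UMIs) and 84.7 after reversal (370 UMIs). None of these libraries was called against sham, and at day 7 the log2 ratio of Vdr was 0.00 (-0.34 to 0.33) where sham was 2.24-fold higher in Kl. With TMM and DESeq2 scaling that day 7 ratio of Vdr was -0.39 and -0.38. Intercalated cells held it at 96.3, 83.7, 83.2 and 86.4 CPM, a range narrower than any 1 of the intervals. Principal cells were at 61.0, 21.7, 49.4 and 57.2 CPM. Phagocytes were at 30.8, 8.70, 10.7 and 10.1 CPM, below every tubule gate with at least 30 cells in its own library other than the thin limb at day 2, which had 0 UMIs.

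Casr was the gene of the thick ascending limb. It was at 81.8 CPM there in sham (57.9 to 112, 38 UMIs), 26.3 at day 2 (19.5 to 34.6, 50 UMIs), 31.9 at day 7 (23.4 to 42.6, 46 UMIs) and 44.2 after reversal (33.3 to 57.5, 55 UMIs). Sham lay above the 3 later libraries without overlap of its interval, and the thick ascending limb had the highest level of the 6 tubule gates with at least 30 cells in each library, although its interval overlapped that of the next gate. The log2 ratios to sham were -1.64 at day 2 (-2.28 to -0.99) and -1.36 at day 7 (-2.01 to -0.70), both called, and -0.89 after reversal (-1.51 to -0.25), not called. The day 7 call was lost with all UMIs (-0.90), with 3 markers per cell (-0.89) and with every cell weighted equally (-0.93).

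Intercalated cells also held Casr, at 30.8 CPM in sham (8 UMIs), 0 at day 2, 10.4 at day 7 (11 UMIs) and 22.4 after reversal (21 UMIs). Among the 6 tubule gates they ranked second in the sham and reversed libraries, with an interval overlapping the next gate, but below the distal convoluted and connecting tubule gates at day 7, again with overlap, and last at day 2. The 0 UMIs at day 2 came from 122 cells and allow a level of up to 2.64 CPM. In type B cells, which secrete bicarbonate, the values were 41.7, 0, 17.9 and 33.3 CPM, and in type A cells, which secrete acid, 0, 0, 2.43 and 12.3 CPM, from no more than 16 UMIs in any library. The 0 UMIs of the 15 sham type A cells allow up to 47.3 CPM, above the sham type B value. At day 2 the limits were 4.71 CPM in type B and 6.38 CPM in type A cells. Proximal cells, with 5, 1, 1 and 4 UMIs, stayed under 1 CPM in all 4 libraries, and leukocytes were at 3.68, 0.157, 0.166 and 1.02 CPM.

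Cells of the reversed library were also split by a UMI of Lcn2, a secreted protein strongly induced in injured distal tubules. This split was chosen after the values had been seen, compares cells of 1 library and carries no test. Lcn2 was found in 1.02% of sham thick ascending limb cells, 91.7% at day 2, 94.9% at day 7 and 53.2% after reversal, and in 2.22%, 81.3%, 72.7% and 44.9% of connecting tubule cells. Lymphocytes, taken as background, gave 0%, 26.1%, 17.1% and 7.66%. In reversed connecting tubule cells Kl was at 3768 CPM in the 27 cells without Lcn2 (3448 to 4110) and 792 in the 22 cells with it (681 to 915), a log2 ratio of -2.25 (-2.50 to -2.0). The cells without Lcn2 were at the sham level of 3809 CPM, and those with it were near the day 7 level of 662 CPM. In the connecting and distal convoluted tubule at day 7 and the thick ascending limb at day 2, Kl in cells without Lcn2 was below the sham level. At day 7 connecting tubule cells were at 873 CPM of Kl without Lcn2 (12 cells) and 577 with it (32 cells), both below sham, and distal convoluted tubule cells were at 280 (12 cells) and 115 CPM (41 cells). At day 2 thick ascending limb cells were at 85.8 CPM without (24 cells) and 122 with it (264 cells).

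The same split gave 1284 CPM of Kl without Lcn2 (47 cells) and 184 with it (17 cells) in the distal convoluted tubule, and 302 (103 cells) and 69.6 CPM (117 cells) in the thick ascending limb. In principal cells the split varied by library. Their Kl was at 674 CPM without (27 cells) and 357 with Lcn2 (10 cells) in sham, with overlapping intervals. At day 7 it was at 276 (15 cells) and 266 CPM (71 cells). At day 2, 70 of 75 held Lcn2, at 145 CPM of Kl against 169 over the gate. After reversal 26 of 30 held it, at 301 CPM (228 to 389) against 591 over the gate. In both, the few cells without Lcn2 thus had the higher level. Of the 124 reversed Kl UMIs, 58 were in cells with Lcn2, and 38 of the 124 came from 1 cell. Vdr was at 444 without and 160 with Lcn2 in the connecting tubule, 247 and 38.3 CPM in the distal convoluted tubule, and 98.2 and 36.6 CPM in the thick ascending limb, so each group without Lcn2 overlapped its sham interval. At day 7 Vdr in connecting tubule cells was at 343 CPM without Lcn2 (236 to 482, 33 UMIs), overlapping sham, and 112 with it (log2 ratio -1.61, -2.40 to -0.84), whereas in the distal convoluted tubule it was at 52.6 without (3 UMIs) and 104 CPM with Lcn2 (0.98, -0.68 to 3.32). Casr in the thick ascending limb was at 60.4 without and 36.6 CPM with Lcn2 (log2 ratio -0.72, -1.54 to 0.11), an interval that included no change. Fgfr1 in the distal convoluted tubule was at 57.1 without and 53.6 CPM with it, from 12 and 7 UMIs. In the connecting tubule it was at 96.2 CPM without (13 UMIs) and 21.6 CPM with Lcn2 (5 UMIs), a log2 ratio of -2.15 (-3.99 to -0.57).

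**Figure D4:**
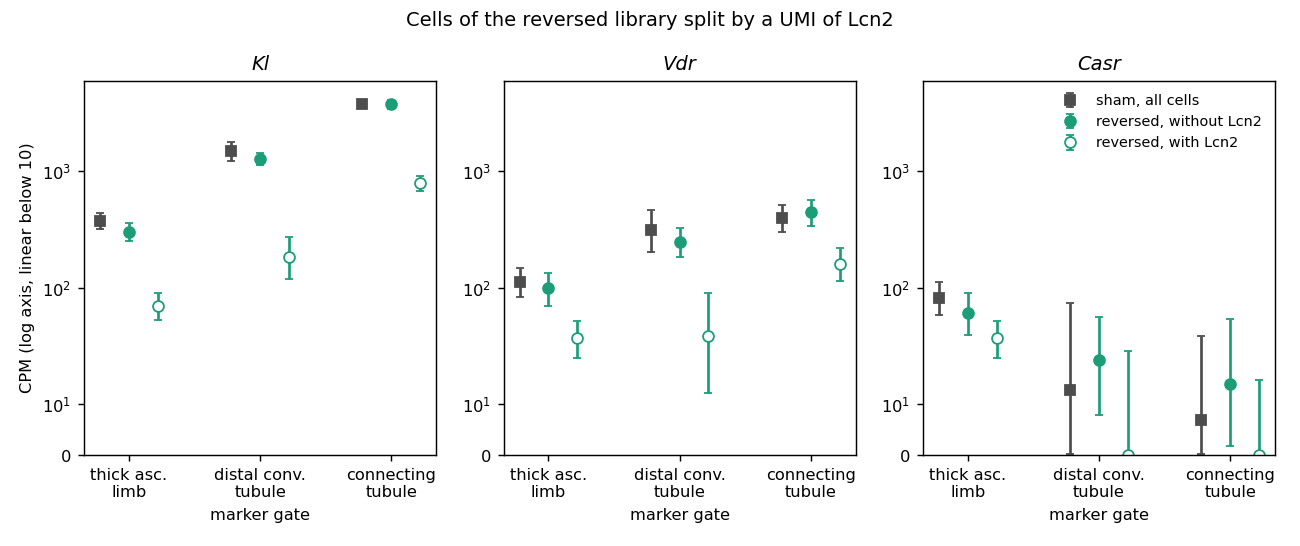
CPM of Kl, Vdr and Casr (log axis, linear below 10) with exact 95% intervals in 3 gates, for all sham cells (squares) and for reversed cells without (filled) or with (open circles) a UMI of Lcn2. Kl in reversed connecting tubule cells is at 3768 CPM without and 792 CPM with Lcn2, beside 3809 CPM in sham.

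Segment markers and depth moved with this split. Slc12a3 in the distal convoluted tubule was at 5349 CPM without and 1210 CPM with Lcn2, Calb1 in the connecting tubule at 10580 and 1237 CPM, and Slc12a1 in the thick ascending limb at 8255 and 2795 CPM. Median non-mitochondrial UMIs were 4488 without and 8243.5 with Lcn2 in the connecting tubule, 4383 and 5723 in the distal convoluted tubule, and 3543 and 6559 in the thick ascending limb. Their part in the split of Kl and Vdr was not tested.

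The 40 further genes of the pathways form 4 lists, fibroblast growth factor signalling (13 genes), vitamin D receptor partners and targets (13), calcium sensing and parathyroid hormone signalling (10) and the enzymes that cleave klotho (4). Against sham, 3 of 28 measured genes were called higher and 1 lower in the proximal tubule at day 2, 5 and 1 of 27 at day 7, and 3 and 0 of 27 after reversal, where 8.18%, 16.3% and 9.79% of all genes were called higher and 2.70%, 4.04% and 0.411% lower. In the thick ascending limb the counts were 5 higher and 2 lower of 27, 3 and 2 of 24, and 3 and 2 of 25, beside 5.49%, 9.73% and 8.84% of all genes called higher and 9.19%, 12.3% and 6.53% lower. In the distal convolution they were 2 and 2 of 13, 4 and 1 of 23, and 1 and 1 of 20, beside 12.1%, 9.73% and 6.02% called higher and 12.0%, 10.4% and 5.22% lower.

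Among vitamin D receptor partners and targets, S100g, the calcium shuttle calbindin-D9k, had the largest difference. In the connecting tubule it was at 54497 CPM in sham, 3858 at day 2, 6123 at day 7 and 22488 after reversal, and over the distal convolution its log2 ratios to sham were -5.04, -3.46 and -1.60, in the same order of libraries as Kl. These ratios again carry the smaller share of connecting tubule cells in the later libraries, and the difference within that gate at day 2 was smaller than the summed one. In the thick ascending limb it was higher at day 2, at 1888 CPM against 235 in sham, with 60.8 CPM in day 2 leukocytes and 198.6 CPM in sham leukocytes, so that the sham value lay near the background. Trpv5, the apical calcium channel, was not lower in obstruction. It was at 145, 215, 403 and 126 CPM in the connecting tubule, and in the distal convolution it was called higher at day 7 (log2 ratio 1.05, 0.39 to 1.79). Slc8a1, the sodium-calcium exchanger, was at 96.4, 21.5, 125 and 199 CPM in the connecting tubule. Of 10 measured list members in the distal convolution at day 7, S100g was lower and Trpv5 higher, with a list median of -0.04 beside -0.01 over all genes, after -0.73 beside -0.01 at day 2, when S100g and Med1 were lower among 5 measured. Med1, a coactivator subunit, had a log2 ratio of -1.10 there at day 2 (-2.20 to -0.02) and was called higher in the proximal tubule at day 7 (1.05). The proximal call is lost once the TMM or DESeq2 shift of all ratios (-0.39 and -0.38) is applied. The distal shifts of 0.087 and 0.060 leave Med1 past 2-fold there, but its interval then includes no change. The coactivators Ncoa3 at day 2 (-1.64) and Ncoa1 at day 7 (-1.18) were lower in the thick ascending limb.

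The calcium-sensing and parathyroid hormone list was led in the thick ascending limb by Cldn14, the tight-junction protein through which the calcium-sensing receptor is known to restrain calcium reabsorption. Cldn14 was at 4.31 CPM in sham (2 UMIs), 63.1 at day 2 (120 UMIs), 36.8 at day 7 (53 UMIs) and 0 after reversal (0 UMIs, which allows up to 2.41 CPM). It was present on the 2 days of obstruction, when Casr was lowest, with log2 ratios to sham of 3.87 (1.99 to 6.93) and 3.09 (1.17 to 6.18). Rgs2, a brake on G protein signalling, was at 81.8, 184, 110 and 60.2 CPM there and was called higher at day 2 (1.17), and Gnai2, an inhibitory G protein subunit, was called higher in all 3 later libraries (1.87, 2.48 and 2.41). Pth1r, the parathyroid hormone receptor, was at 706, 892, 617 and 337 CPM and was called lower after reversal (-1.07). In the distal convolution Gnai2 was higher in all 3 later libraries (1.67, 2.05 and 1.43), Rgs2 on days 2 and 7 (2.52 and 2.14), and Cldn19, a tight-junction protein of the thick ascending limb, at day 7 (3.39, from 35 against 1 UMI). Of those 35 UMIs, 34 came from the distal convoluted tubule gate, whose day 7 cells all lay in cluster 4, named thick ascending limb, and the part of this in the value was not tested. Leukocyte levels of Gnai2 and Rgs2 were not computed, and the part of leukocyte RNA in their tubule values was not tested. Gated leukocytes were 87 in sham, 705 at day 2, 2821 at day 7 and 933 after reversal. The list medians against sham were 0.34, -0.11 and -0.13 in the thick ascending limb, beside -0.15, -0.05 and 0.04 over all genes, and 0.79, 0.85 and 0.33 in the distal convolution, beside -0.01, -0.01 and -0.06.

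**Figure D5:**
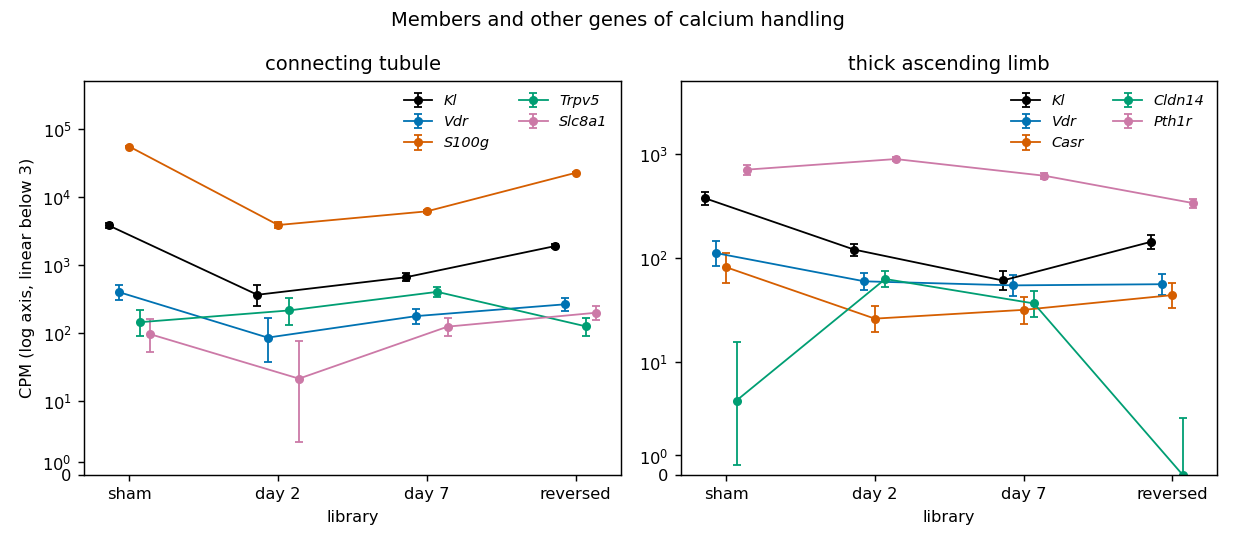
CPM by library (log axis, linear below 3, exact 95% intervals) of Kl, Vdr and 3 calcium transport genes in the connecting tubule (left), and of Kl, Vdr, Casr, Cldn14 and Pth1r in the thick ascending limb (right). S100g follows the dip of Kl in obstruction and Trpv5 does not, and Cldn14 is at 63.1 CPM at day 2 and 0 after reversal.

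In the FGF signalling list Egr1, an immediate-early gene downstream of the MAP kinase cascade, was called higher in the proximal tubule in all 3 later libraries (2.38 CPM in sham, 15.5, 69.7 and 30.7 CPM) and in the thick ascending limb (10.8, 39.4, 43.0 and 133 CPM). The list medians in the proximal tubule were -0.04, 0.47 and 0.25, beside 0.10, 0.23 and 0.16 over all genes. Spry1, a feedback inhibitor of the cascade, was lower in the thick ascending limb at day 2 (-1.86) and after reversal (-1.34), Dusp6, another, was lower there at day 7 (-1.08), a call that is lost once the TMM or DESeq2 shift of these ratios (0.14 and 0.12) is applied, and Etv5, a transcription factor of the cascade, was lower in the proximal tubule at day 2 (-1.60). Gab1, an adaptor, was higher in the thick ascending limb after reversal (1.95, from 31 against 3 UMIs). Of the klotho-cleaving enzymes, Adam10 was at 40.3, 38.1, 51.8 and 48.1 CPM in the proximal tubule and 36.6, 44.7, 47.2 and 56.2 CPM in the thick ascending limb. In the connecting tubule Adam10 was at 34.4 (5 UMIs), 118 (11 UMIs), 92.0 (31 UMIs) and 54.6 CPM (20 UMIs). Adam17 was at 13, 11.3, 17 and 19.7 CPM in the proximal tubule and 23.7, 26.3, 22.9 and 29.7 CPM in the thick ascending limb. Neither was called against sham in the proximal tubule, thick ascending limb or distal convolution, and Bace1 after reversal in the proximal tubule (1.23, 0.64 to 1.83) was the one call of this list against sham in these 3 gates, kept with the TMM shift of -0.21 and lost with the DESeq2 shift of -0.26.

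Across 39 gate and library profiles of at least 30 cells, log2 of CPM plus 10 gave a Pearson r of 0.87 between Kl and Vdr, 0.55 between Vdr and Casr, 0.45 between Kl and Casr, and 0.37, 0.37 and 0.17 between Fgfr1 and Kl, Vdr and Casr. The search for like profiles covered 13189 genes with at least 100 UMIs over these profiles and left out the gate markers. Among these genes the profile most like Kl was that of Usp2, a deubiquitinase (0.92), followed by Mccc1 (0.89), Slc35b4, Abhd17c and Abcd3 (0.88 each). Usp2 also led for Vdr (0.90), before Ogdh (0.89), Wnk4 (0.88), Ush1c and Acss1 (0.87 each). Casr was most like Slc5a3 (0.89), Fgf9, Gm13111 and Tmem72 (0.84 each) and Gcgr (0.83), and Fgfr1 most like Itgb5 (0.80), Ptms, Fndc3b (0.78 each), Nfix and Ext1 (0.77 each). The profiles share libraries and free RNA, are not independent, and carry no test. With a pseudocount of 1 in place of 10, the 5 nearest genes shared 4 for Kl, 2 for Fgfr1, 3 for Vdr and 4 for Casr.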

How the data were processed

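Per the labels, kidneys were digested on ice, live cells were sorted with DAPI and droplet 3' V2 libraries were made; Cell Ranger, STAR and GRCm38 are named in the submitters' processing notes without roles. For each cell, the authors deposited unnormalized UMI counts of every gene. A plate-based Smart-seq2 sample was not analysed here. One gene of the lists is not reported here by name.

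Cells had to show 200 genes and no more than 50% mitochondrial UMIs, and the highest Scrublet scores were removed as doublets at 0.8% per 1000 cells. With scanpy 1.11.5, 2000 variable genes, 30 components and 15 neighbours, Leiden clustering at resolution 1 gave 33 clusters, which set a cell's lineage. Within a lineage a cell took the gate of its highest marker score if at least 2 markers were detected and the score reached 0.15. This left 592 cells ungated and 272 near a boundary. The 4 genes are not gate markers. The scoring rule was set and revised after values had been seen, and members, lists and markers were chosen with earlier results of these data known.

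UMI counts were summed per gate and library. Intervals at 95% are exact (Poisson for CPM, Clopper-Pearson for shares, conditional binomial for ratios). Where no UMI was seen, the limit given is 3 counts per gate and library. The calling step was tested on simulated data. The text names all 4 members and the 5 nearest profiles per member. It names at most the 3 highest and 2 lowest called genes per list and comparison. Lcn2, the other FGF receptors, Trpv5, Slc8a1, Adam10, Adam17 and values of listed genes that were not called were chosen after values had been seen. Scaling alternatives used edgeR 4.0.16 and DESeq2 1.42.0.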

Additional observations from a re-analysis of the deposited data

How the results depend on the processing

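Over 24 log2 ratios to sham, 242 alternative values were computed, of which 229 had the sign of the value reported, 207 lay inside its interval, 35 outside, and 0 called ratios changed sign. No doublet removal and the 146 shared barcodes left out moved none of the 24 outside its interval, nor did subtracting leukocyte levels from the 12 it was run on. With all UMIs as the denominator Kl in the distal convolution was -2.53 at day 7 and -0.87 after reversal, in the proximal tubule -0.79, -0.85 and 0.083, in the thick ascending limb -2.16 at day 7 and -1.06 after reversal, and Vdr in the distal convolution -1.004 at day 7. TMM and DESeq2 scaling gave proximal Kl values of -1.55 and -1.54 at day 7 and -0.23 and -0.28 after reversal, with -1.17 at day 2 under DESeq2, and proximal Vdr values of -0.39 and -0.38 at day 7 and -0.047 and -0.10 after reversal. These scalings shifted all proximal ratios by -0.14 and -0.18, -0.39 and -0.38, and -0.21 and -0.26 in the 3 libraries, and thick ascending limb ratios by 0.24 and 0.20 at day 2. With at most 20% mitochondrial UMIs proximal Kl was -0.72 at day 7 and 0.13 after reversal, proximal Fgfr1 1.48 and 2.11 on days 2 and 7, thick ascending limb Kl -0.78 and -1.87, and thick ascending limb Vdr -1.68 after reversal. That limit left 3 sham cells of the distal convolution and gave no value there. Weighting every cell equally gave distal Kl -3.70, -2.58 and -0.77 and thick ascending limb Kl -2.06 at day 7 and -0.86 after reversal. At least 3 markers gave distal Kl -2.64 at day 7 and -0.81 after reversal, and leaving out boundary cells -0.91 after reversal, an alternative added after seeing the data. Whole clusters as gates gave distal Kl -0.35 and Vdr -0.31 after reversal, Kl -1.70 in the thick ascending limb at day 7, and no distal value on days 2 and 7. No cluster was named connecting tubule, so these distal values cover cluster 27 alone (57 reversed and 45 sham cells). With a minimum of 1 UMI, 7 of 37 measured list genes were called in the distal convolution at day 2 (18.9%, beside 11.1% of all genes). This was in place of 4 of 13 (30.8%, beside 24.1%), so the share called was lower. In the proximal tubule at day 7, 10 of 38 were called (26.3%, beside 21.1%) in place of 6 of 27 (22.2%, beside 20.3%). The causes were not tested. No paired analysis was possible because each condition had 1 library. Few distal cells and few UMIs of Casr and Fgfr1 limit the precision.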
